A study of Mus musculus with 6 samples.

Results

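This section describes 9 genes that make, bind, take up or break down retinoids, the compounds derived from vitamin A, in mouse keratinocytes after deletion of part of Lama3, which encodes a laminin chain of the epidermal basement membrane. They are Rdh10, Dhrs9, Aldh1a1, Aldh1a2, Aldh1a3, Cyp26b1, Crabp1, Crabp2 and Stra6, chosen by symbol. All 9 were found among the 45513 Ensembl gene identifiers of the count table, and all 9 passed the filter on low counts that left 15513 genes for testing. RNA came from keratinocytes isolated from the skin of 3 knockout and 3 control mice on a C57BL/6 background, called knockout 1 to 3 and control 1 to 3 after the sample titles. The knockouts carried both Lama3 alleles with loxP sites around exons 50 to 53. Per the design text the controls carried 1 floxed and 1 wild type allele, whereas their genotype label reads wild type. Mice of both groups carried K14-CreERT, a Cre recombinase that the keratin 14 promoter drives in basal keratinocytes and that tamoxifen switches on. Tamoxifen was given in chow at 400 mg per kg, and the text does not say whether the controls received it too. Age and sex are not labelled, and the deletion is limited to cells in which the keratin 14 promoter is active.

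Retinol enters cells from its carrier in blood, in some tissues through the receptor encoded by Stra6. Retinol dehydrogenases such as those encoded by Rdh10 and Dhrs9 oxidise it to retinaldehyde, and the retinaldehyde dehydrogenases encoded by Aldh1a1, Aldh1a2 and Aldh1a3 turn retinaldehyde into retinoic acid. Retinoic acid is held in the cytosol by the binding proteins of Crabp1 and Crabp2, acts through nuclear RAR and RXR receptors, and is broken down by CYP26 enzymes such as that of Cyp26b1. In skin, retinoic acid is known for its effects on keratinocyte differentiation, hair follicles and sebaceous glands.

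Promoters of Dhrs9, Cyp26b1 and Aldh1a1 are shown because the calls of these genes held when any single library was left out. They are RefSeq windows of GRCm38.p6, from 250 bases before to 50 bases after an annotated start, printed 5′ to 3′ on the strand of the gene. Of the 9 genes, 6 had such a window. Distances below are counted from the start of the window's own RefSeq annotation. For these 3 genes that start differs from the gene positions given later, which are from GENCODE. Dhrs9 lies at chr2:69380212-69380511 on the plus strand, Cyp26b1 at chr6:84593761-84594060 on the minus strand, and 1 of the 2 listed Aldh1a1 windows at chr19:20492333-20492632 on the plus strand. Capitals mark matches, on either strand, to AGGTCA (the half-site that RAR and RXR bind), TGANTCA (the AP-1 motif) and TATAAA (the TATA box).
Dhrs9: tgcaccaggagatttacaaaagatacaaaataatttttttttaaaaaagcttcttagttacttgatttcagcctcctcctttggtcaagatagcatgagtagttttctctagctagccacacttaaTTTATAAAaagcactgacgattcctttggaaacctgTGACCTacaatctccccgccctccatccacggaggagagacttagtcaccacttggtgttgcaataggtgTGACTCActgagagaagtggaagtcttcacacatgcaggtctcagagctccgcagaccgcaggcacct
Cyp26b1: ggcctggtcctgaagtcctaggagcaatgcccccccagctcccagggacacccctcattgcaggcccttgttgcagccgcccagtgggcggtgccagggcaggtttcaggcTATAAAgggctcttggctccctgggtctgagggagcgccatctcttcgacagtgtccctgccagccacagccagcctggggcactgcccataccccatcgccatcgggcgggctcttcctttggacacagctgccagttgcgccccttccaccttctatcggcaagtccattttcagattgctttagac
Aldh1a1: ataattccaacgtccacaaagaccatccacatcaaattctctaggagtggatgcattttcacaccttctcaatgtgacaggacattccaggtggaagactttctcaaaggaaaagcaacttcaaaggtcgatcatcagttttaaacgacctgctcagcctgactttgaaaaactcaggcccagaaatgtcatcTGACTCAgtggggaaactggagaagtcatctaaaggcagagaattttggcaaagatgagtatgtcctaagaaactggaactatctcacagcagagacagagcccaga
In the Dhrs9 window AGGTCA was present once, on the opposite strand as TGACCT, beginning 88 bases before the start, and TGANTCA once, as TGACTCA, 18 bases before it. The same window held TATAAA 122 bases before the start, overlapped by a match on the opposite strand. In the Cyp26b1 window only TATAAA was found, 139 bases before the start. In the Aldh1a1 window only TGANTCA was found, as TGACTCA, 57 bases before it. That window was printed because it holds a match, and the other Aldh1a1 window, at chr19:20601718-20602017, held none of the 3 motifs. Across the 32851 promoter windows of this length that were searched, 16.3% held AGGTCA, 7.81% TGANTCA and 13.6% TATAAA. Direct repeats of the retinoic acid receptor half-site with a spacer of 2 or 5 bases were found in none of the windows of the 6 genes, against 0.268% and 0.0974% of those windows.

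Before the retinoid genes are taken up, the libraries are described. Total counts lay between 20126395 and 28473479 per library. Lama3, the targeted gene, was measured at 141, 142 and 114 CPM (the count rescaled to a common library size, with TMM factors from edgeR) in controls 1, 2 and 3, and at 97.3, 98.9 and 79.2 CPM in knockouts 1, 2 and 3. The groups thus did not overlap, though the counts also include exons outside the deletion. Krt5, a keratin that defines basal keratinocytes, lay between 6313 and 9664 CPM in all 6 libraries. Of the 10 listed basal markers 3 rose, 1 fell and 6, Krt5 among them, were not called at the threshold given below. Over all genes tested 17.4% were higher and 18.8% lower. Nothing in the labels says more about the replicates than that they are separate mice. The counts of Xist, from the inactive X chromosome, were 36549, 21266 and 26153 in control 1, knockout 1 and knockout 2, against 9 to 43 in the other libraries.

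Among the 9 genes Dhrs9, Cyp26b1 and Rdh10 rose in the knockouts and Aldh1a1 and Aldh1a2 fell, while Aldh1a3, Crabp1, Crabp2 and Stra6 were not called. A gene was called at an adjusted p under 0.05, from the quasi-likelihood test of edgeR fitted on all tested genes. Over all 15513 genes tested the share called was 36.2%, made up of 17.4% higher and 18.8% lower, so a count of 3 higher and 2 lower of 9 lies close to a background in which many genes moved. The median log2 fold change was 0.05 for the 9 genes and -0.02 for all genes tested. The knockout and control libraries did not overlap in CPM for the same 5 genes, against 51.7% of all genes tested. Of the 9 genes 3 had all knockouts above all controls, against 25.2% of all genes, and 2 had them below, against 26.5%. Of the genes called higher, 97.8% had a smaller fold than Dhrs9 and 95.3% a smaller one than Cyp26b1, whereas for Rdh10 the share was 13.7%.

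**Figure D1:**
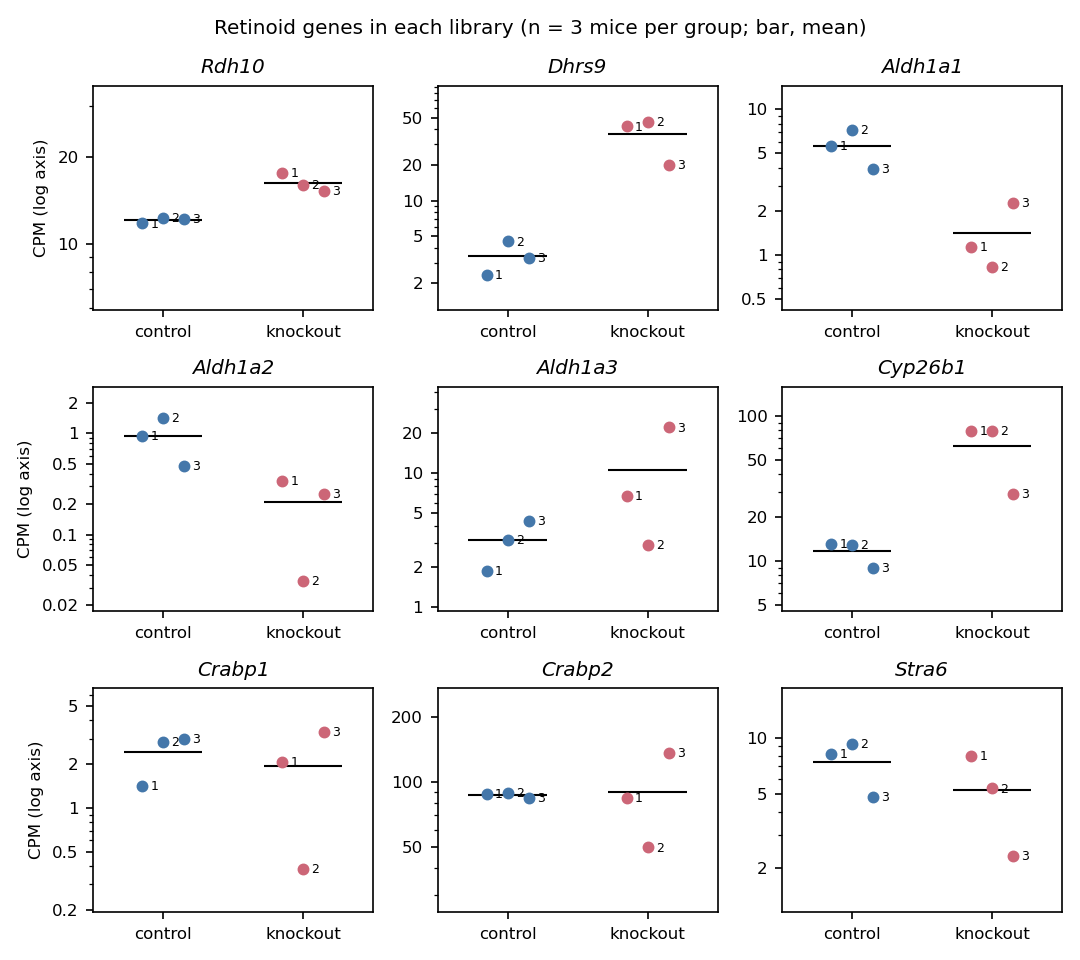
CPM of each of the 9 genes on a log axis, with 1 numbered point per library and a bar at the group mean (n = 3 mice per group). The knockouts lie above all controls for Dhrs9, Cyp26b1 and Rdh10, below them for Aldh1a1 and Aldh1a2, and overlap the controls for the other 4 genes.

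The first step, from retinol to retinaldehyde, was represented by Rdh10 and Dhrs9. Dhrs9 (ENSMUSG00000027068, chromosome 2, 69380445 to 69404533, plus strand of GRCm38) encodes a short-chain dehydrogenase that also acts on steroids. It was measured at 2.37, 4.53 and 3.26 CPM in controls 1, 2 and 3 and at 42.2, 46.2 and 19.8 CPM in knockouts 1, 2 and 3. All knockouts lay far above the controls, and knockout 3 was the lowest of them, still 4.38 times the highest control. The mean went from 3.39 ± 1.08 to 36.1 ± 14.2 CPM (SD, n = 3 each), a log2 fold change of 3.42 (SE 0.37) or 10.7-fold, with edgeR's adjusted p at 0.00152. With each library left out in turn the log2 fold change stayed between 3.20 and 3.72 and the call was kept.

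Rdh10 (ENSMUSG00000025921, chromosome 1, 16105774 to 16133734, plus strand), which encodes the retinol dehydrogenase needed for retinoic acid in the embryo, differed much less. It was measured at 11.8, 12.3 and 12.3 CPM in the controls and at 17.6, 16.1 and 15.3 CPM in the knockouts, in the order of their numbers. The controls were nearly alike, and every knockout lay above them. The log2 fold change was 0.43 (SE 0.13), or 1.35-fold, with edgeR's adjusted p at 0.0323. That call depended on most libraries, since edgeR's adjusted p rose to 0.0730, 0.0603 and 0.0894 on leaving out control 1, 2 and 3 and to 0.0997 and 0.0737 on leaving out knockout 1 and knockout 2. Upper-quartile scaling instead of TMM gave a log2 fold change of 0.28 and no call (edgeR's adjusted p = 0.108). The call was also lost with sex, read from Xist and Y-linked counts, as a covariate (edgeR's adjusted p = 0.0617).

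Breakdown of retinoic acid was represented by Cyp26b1 (ENSMUSG00000063415, chromosome 6, 84571414 to 84593908, minus strand). This gene was measured at 13.0, 12.9 and 8.96 CPM in controls 1, 2 and 3 and at 79.0, 79.2 and 29.1 CPM in knockouts 1, 2 and 3. Knockouts 1 and 2 were nearly equal, and knockout 3 was lower but 2.23 times the highest control. The mean went from 11.6 ± 2.31 to 62.5 ± 28.8 CPM, a log2 fold change of 2.43 (SE 0.38) or 5.38-fold (edgeR's adjusted p = 0.00469). The call was kept with each library left out in turn, at log2 fold changes between 2.22 and 2.78. Of the other CYP26 genes, Cyp26a1 had a count of 1 in control 2 and in knockout 2 and none elsewhere, and Cyp26c1 a count of 1 in knockouts 1 and 3 and none elsewhere, so neither could be compared.

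Dhrs9 and Cyp26b1 shared the order of the knockouts, with knockout 2 highest and knockout 3 lowest. The mean of knockouts 1 and 2 was 2.23 times the level of knockout 3 for Dhrs9 and 2.71 times for Cyp26b1. Over all tested genes knockout 3 was the lowest knockout in 38.2%. Knockout 3 was also the only knockout low in Xist, with a count of 9, and a part of sex in this order was not tested. The marker list of suprabasal keratinocytes was also higher in the knockouts. Of 11 tested markers 8 rose and none fell, with a median log2 fold change of 1.33. The summed level of that list, most of it from Krt1 and Krt10, lay between 14860 and 17370 CPM in the controls. In knockouts 1, 2 and 3 it was 47170, 32680 and 31110 CPM, an order other than that of Dhrs9 and Cyp26b1. Whether the cells of this list had a part in the higher Dhrs9 and Cyp26b1 was not tested. In these bulk samples, more or fewer cells of a type and more or less RNA per cell cannot be told apart.

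The enzymes that form retinoic acid itself went the other way or were not called. Aldh1a1 (ENSMUSG00000053279, chromosome 19, 20492715 to 20643465, plus strand) was measured at 5.60, 7.24 and 3.93 CPM in controls 1, 2 and 3 and at 1.14, 0.838 and 2.29 CPM in knockouts 1, 2 and 3. Every knockout lay below every control, knockout 3 being the closest. The mean went from 5.59 ± 1.66 to 1.42 ± 0.764 CPM, a log2 fold change of -1.97 (SE 0.41), that is 3.91-fold lower, with edgeR's adjusted p at 0.01003. The call was kept with each library left out in turn, between -2.49 and -1.69.

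Aldh1a2 (ENSMUSG00000013584, chromosome 9, 71215789 to 71296243, plus strand), the main retinaldehyde dehydrogenase of the early embryo, was scarce. Controls 1, 2 and 3 had 22, 30 and 12 raw counts, against 8, 1 and 7 for knockouts 1, 2 and 3. The single count of knockout 2 has an exact Poisson 95% interval from 0.0253 to 5.57 counts, which covers counting error only. In CPM the controls lay at 0.948, 1.43 and 0.472 and the knockouts at 0.338, 0.0349 and 0.254, without overlap. The log2 fold change was -2.18 (SE 0.67), or 4.53-fold lower (edgeR's adjusted p = 0.0369). On leaving out control 1 or 2 edgeR's adjusted p was 0.0817 or 0.105, and on leaving out knockout 1, 2 or 3 it was 0.0584, 0.0812 or 0.0661, all above the threshold. With sex as a covariate it was 0.0560. With a filter of 1 CPM this gene was not tested.

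Aldh1a3 (ENSMUSG00000015134, chromosome 7, 66390890 to 66427517, minus strand) had the largest standard error of the 9 fold changes. It was measured at 1.85, 3.15 and 4.40 CPM in controls 1, 2 and 3 and at 6.77, 2.90 and 21.9 CPM in knockouts 1, 2 and 3. Knockout 3 was 4.96 times the highest control, while knockout 2 lay among the controls. The log2 fold change of 1.74 (SE 0.71, 95% interval 0.08 to 3.40) was not called (edgeR's adjusted p = 0.0916). DESeq2 called it (adjusted p = 0.0138), as did edgeR on leaving out knockout 2 (2.20, SE 0.53, adjusted p = 0.0293) or adding sex as a covariate (2.02, SE 0.40, adjusted p = 0.0108). Without knockout 3 the log2 fold change was 0.62. Within each group the libraries low in Xist had more Aldh1a3 than those high in it.

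Because these 3 enzymes carry out the same reaction, their levels were set side by side per kilobase of exon. In the controls Aldh1a1 was at 1.13 ± 0.335, Aldh1a3 at 0.679 ± 0.276 and Aldh1a2 at 0.419 ± 0.212 CPM per kb. In the knockouts the order was Aldh1a3 at 2.28 ± 2.17, Aldh1a1 at 0.288 ± 0.155 and Aldh1a2 at 0.0924 ± 0.0692 CPM per kb. Aldh1a1 thus made up 58.1%, 52.8% and 40.7% of the 3 in controls 1, 2 and 3, whereas knockouts 1, 2 and 3 had 12.5%, 20.9% and 8.73%. The means of this share were 50.5% ± 8.92 and 14.0% ± 6.22 (SD over 3 libraries in each group), with a 2-sided exact permutation p of 0.1, the lowest possible for 3 against 3. The share of Aldh1a3 went from 31.2% ± 15.2 to 81.9% ± 6.36 (exact permutation p = 0.1), and in every knockout Aldh1a3 was the most abundant of the 3. The sum of the 3 was 1.95, 2.78 and 1.96 CPM per kb in the controls and 1.85, 0.813 and 5.31 in the knockouts. That sum had no common direction, since knockout 2 was the lowest and knockout 3 the highest of all libraries (2-sided exact permutation p = 1).

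**Figure D2:**
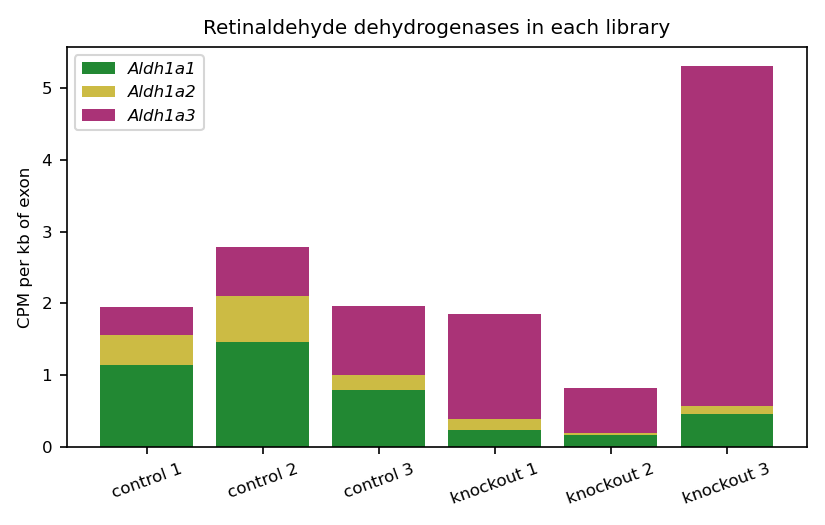
Levels of Aldh1a1, Aldh1a2 and Aldh1a3 in CPM per kb of exon, stacked for each of the 6 libraries. Aldh1a1 is the largest part in controls 1 and 2, and Aldh1a3 is the largest in control 3 and in all 3 knockouts, where it holds between 77.2% and 89.2%.

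Markers of several other cell types fell in the libraries in which Aldh1a1 and Aldh1a2 fell. Over all genes tested 18.8% fell and 17.4% rose. Of 13 sebocyte markers 8 fell and none rose (summed level 2039 to 2474 CPM in the controls, 1047 to 1604 CPM in the knockouts). Of 12 tested markers of hair shaft and inner root sheath 9 fell and 1 rose (384 to 609 against 192 to 262 CPM). Of 9 tested dermal fibroblast markers 4 fell and none rose, with a summed level of 1249 to 1719 against 572 to 1132 CPM, most of it from Postn. Postn itself was not called and is also on the list of outer root sheath and follicle stem cells. Thy1, 1 of the 4 that fell, is also a T cell marker. Col1a1, Col1a2, Col3a1 and Pdgfra were not called, and their libraries overlapped between the groups. All 10 T cell markers and all 6 tested melanocyte markers fell, with sums of 182 to 367 against 82.5 to 99.6 CPM and of 55.3 to 193 against 12.1 to 24.5 CPM. Of 5 tested markers of dermal papilla and sheath 3 fell and 1 rose. The summed level of that list was not lower, at 23.8 to 28.9 against 26.4 to 51.1 CPM. Much of that sum came from Wif1, the marker that rose, at 14.7, 8.91 and 9.71 CPM in controls 1, 2 and 3. In knockouts 1, 2 and 3 Wif1 was at 45.4, 22.4 and 31.1 CPM. The 3 that fell were Rspo3, Notum and Lef1 (log2 fold changes -3.95, -3.06 and -2.20). The endothelial list, of which 3 markers were tested and 1 fell, summed to 4.95 to 6.37 against 2.51 to 2.69 CPM. Other lists did not fall. Of 8 tested macrophage markers 3 rose and none fell, and of 11 of outer root sheath and follicle stem cells 3 rose and 1 fell. Of 10 Langerhans cell markers 1 rose and 1 fell. The part of any of these cell types in the lower Aldh1a1 and Aldh1a2 was not tested.

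**Figure D3:**
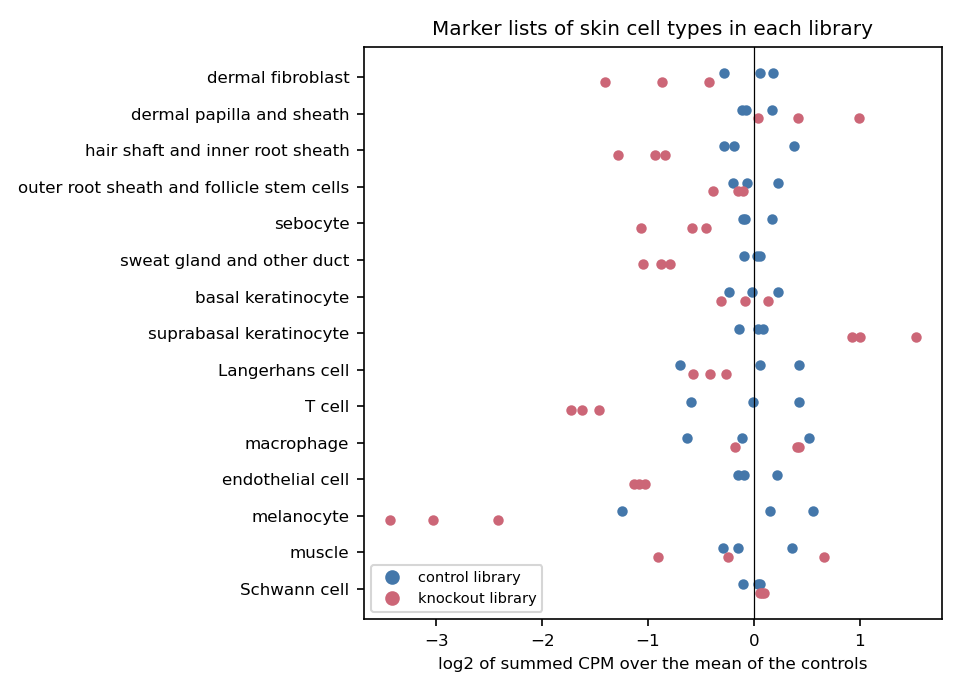
Summed CPM of each marker list in each library, as log2 of the ratio to the mean of the 3 controls, with 1 point per library. The knockouts lie above every control for suprabasal keratinocytes and below every control for sebocytes, hair shaft and inner root sheath, sweat gland and other duct, dermal fibroblasts, T cells, melanocytes and endothelial cells. Most of the dermal fibroblast sum is Postn. Most of the sweat gland and other duct sum is Cst6 and Krt79, and of 5 tested markers on that list 3 fell. Krt8, not called, and Krt18, not tested, had control means of only 1.29 and 0.394 CPM.

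The binding proteins did not separate the groups. Crabp2 (ENSMUSG00000004885, chromosome 3, 87948666 to 87953376, plus strand), whose protein hands retinoic acid to its nuclear receptors, was measured at 87.9, 88.9 and 83.8 CPM in the controls and at 83.8, 49.6 and 136 CPM in knockouts 1, 2 and 3. The controls were tightly grouped, knockout 2 lay below them and knockout 3 above. The log2 fold change was 0.05 (SE 0.31, 95% interval -0.67 to 0.76, edgeR's adjusted p = 0.920). It turned to -0.37 without knockout 3 (edgeR's adjusted p = 0.205).

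Crabp1 (ENSMUSG00000032291, chromosome 9, 54764748 to 54773110, plus strand), its close relative, was measured at 1.42, 2.86 and 2.99 CPM in the controls and at 2.07, 0.384 and 3.34 CPM in the knockouts. Knockout 2 was the lowest library and knockout 3 the highest. The log2 fold change was -0.33 (SE 0.65, 95% interval -1.84 to 1.18, edgeR's adjusted p = 0.715), and without knockout 2 it was 0.17. Per kilobase of exon Crabp2 was by far the more abundant, at 65.7 ± 2.04 CPM per kb in the controls and 67.8 ± 32.7 in the knockouts, against 3.02 ± 1.08 and 2.41 ± 1.85 for Crabp1. Crabp2 made up 95.6% ± 1.58 of the pair in the controls and 97.0% ± 1.53 in the knockouts (2-sided exact permutation p = 0.4).

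Stra6 (ENSMUSG00000032327, chromosome 9, 58063788 to 58153996, plus strand), the receptor for retinol and its carrier, was measured at 8.18, 9.20 and 4.84 CPM in the controls and at 7.99, 5.34 and 2.32 CPM in the knockouts. The groups overlapped, with knockout 3 the lowest of all. The log2 fold change of -0.51 (SE 0.43, 95% interval -1.51 to 0.50) was not called (edgeR's adjusted p = 0.386). No exon of any of the 9 genes overlapped an exon of another annotated gene.

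**Figure D4:**
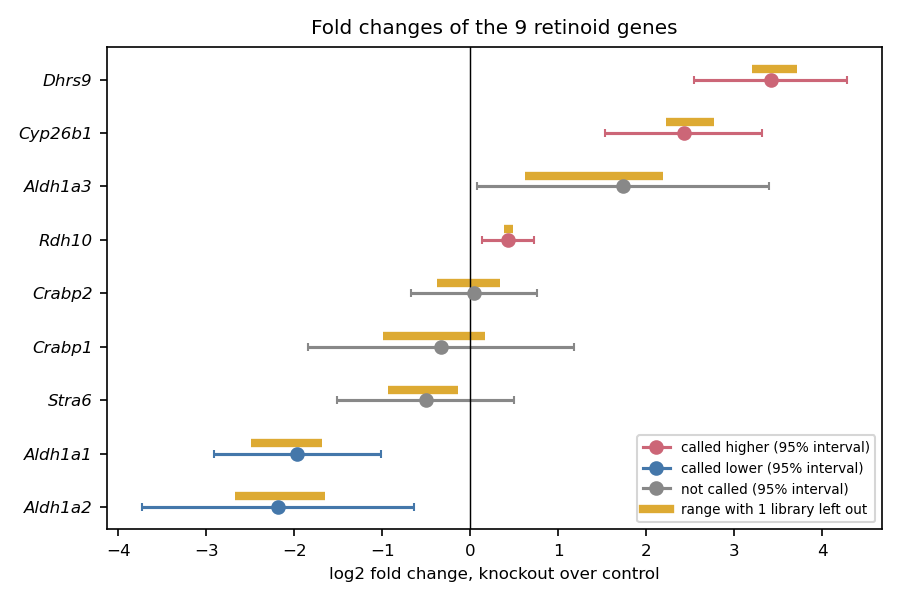
Log2 fold change of the 9 genes, knockout over control, with the 95% interval from edgeR (points and thin bars) and, just above each, the range of values with 1 library left out at a time (yellow bars). Dhrs9 at 3.42 and Cyp26b1 at 2.43 stand highest, Aldh1a1 at -1.97 and Aldh1a2 at -2.18 lowest, and the intervals of Crabp1, Crabp2 and Stra6 include 0.

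Ordered by CPM per kb, Crabp2 led both groups. In the controls Crabp1 (3.02 ± 1.08), Rdh10 (2.91 ± 0.0665) and Cyp26b1 (2.17 ± 0.431) followed. Libraries of Crabp1 overlapped those of both, whereas Rdh10 and Cyp26b1 did not overlap. Stra6 (1.27 ± 0.392) lay just below, its highest control at 1.578 against 1.675 for the lowest of Cyp26b1. After it came Aldh1a1, Dhrs9 (0.791 ± 0.253), Aldh1a3 and Aldh1a2, each overlapping the one before. In the knockouts Cyp26b1 (11.7 ± 5.39) and Dhrs9 (8.42 ± 3.32) came next after Crabp2, and their libraries overlapped. Rdh10 (3.93 ± 0.284), Crabp1, Aldh1a3, Stra6 (0.895 ± 0.487) and Aldh1a1 followed, each overlapping the next, and Aldh1a2 lay below Aldh1a1 in all libraries. Crabp1, Crabp2, Aldh1a1 and Aldh1a3 had their highest knockout level in knockout 3 and their lowest in knockout 2, the reverse of Dhrs9 and Cyp26b1.

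The other retinoid enzymes moved in both directions. Of 34 listed, 26 were tested, 4 rose, 6 fell and 16 were not called, with a median log2 fold change of -0.23. These counts lie near the shares over all genes tested, 17.4% higher and 18.8% lower. Among dehydrogenases that act on retinol, Rdh16 went from 1.38 ± 0.605 to 7.64 ± 0.574 CPM (2.47, SE 0.32, edgeR's adjusted p = 0.00230) and Rdh1 from 10.6 ± 1.95 to 31.8 ± 8.26 CPM (1.59, SE 0.22). Every knockout lay above every control for both. Rdh1, Rdh7, Rdh9, Rdh16 and Rdh19 are related copies, and how reads matching several of them were counted is not given in the sources used here, so values between copies are uncertain. Awat2, an acyltransferase that esterifies wax alcohols and retinol, fell from 39.1 ± 9.03 to 3.33 ± 1.46 CPM (-3.55, SE 0.35, edgeR's adjusted p = 0.00122), and it is also a sebocyte marker. Ces1d, a carboxylesterase, fell from 59.4 ± 19.9 to 10.7 ± 2.49 CPM (-2.47, SE 0.28). Lrat, the main enzyme that stores retinol as esters, was measured at 1.46, 16.8 and 12.9 CPM in the controls and 5.45, 1.33 and 18.5 CPM in the knockouts. Both groups spanned nearly the same range, and Lrat was not called (-0.30, SE 1.02, edgeR's adjusted p = 0.835).

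Of 13 carrier and uptake genes 9 were tested, 3 rose, none fell and 6 were not called, with a median of 0.13, beside the same 17.4% and 18.8% over all genes. Ttr, transthyretin, the partner of the retinol carrier in blood, was measured at 0.474, 0.286 and 0.786 CPM in the controls and 7.06, 8.17 and 5.63 CPM in the knockouts (log2 fold change 3.72, SE 0.36, edgeR's adjusted p = 0.00114). Lrp1, a lipoprotein receptor, rose by 0.82 (SE 0.15). Rbp2, a cellular retinol-binding protein, was at 25.7, 33.6 and 49.1 CPM in the controls and 115, 50.3 and 194 CPM in the knockouts (1.73, SE 0.47, edgeR's adjusted p = 0.0270). Knockout 2 barely cleared the highest control, and edgeR's adjusted p was 0.0706, 0.0922 and 0.0580 on leaving out control 1, 2 and 3. On leaving out knockout 1 or 3 it was 0.0608 or 0.0640, so the call of Rbp2 was lost there too, as it was without the filter on low counts (edgeR's adjusted p = 0.131). The order of the knockouts in Rbp2 was that of Crabp2.

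Of 14 receptor and cofactor genes 12 were tested, 6 rose, none fell and 6 were not called, with a median of 0.35. Over all genes tested 17.4% rose and 18.8% fell, with a median of -0.02. Of the 12 genes 8 had all knockouts above all controls and none had them below, against 25.2% and 26.5% of all genes tested. No tested RAR or RXR gene was called. Rarg, the main RAR gene of epidermis, was at 225 ± 27.2 and 259 ± 33.6 CPM (0.21, SE 0.15, edgeR's adjusted p = 0.314). Rxra was at 253 ± 22.2 and 308 ± 22.9 CPM (0.28, SE 0.13, edgeR's adjusted p = 0.128), with all knockouts above all controls. The changes that were called lay mostly in cofactors. Ppard, a nuclear receptor that pairs with RXR, rose from 28.1 ± 3.65 to 65.2 ± 11.7 CPM (1.22, SE 0.17, edgeR's adjusted p = 0.00266). The coactivator genes Ncoa1 (0.44, SE 0.11) and Ncoa3 (0.47, SE 0.13) and the RAR cofactor gene Trim24 (0.42, SE 0.11) rose by small amounts. Only Ppard among the 12 was called higher with upper-quartile factors. The number that rose was 1 without control 1 or knockout 2, 2 without control 2 or control 3, and 3 without knockout 1. Rarb, a receptor gene that retinoic acid induces in many cells, had counts of 2, 9 and 14 in the controls and 0, 0 and 2 in the knockouts and was too low to be tested.

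Genes known to respond to retinoic acid showed no shared direction. Of 18 listed, 13 were tested, 1 rose, 1 fell and 11 were not called, with a median of -0.10, against 36.2% called over all genes. Tgm2, a transglutaminase induced by retinoic acid in many cells, fell from 3.22 ± 0.361 to 1.17 ± 0.0348 CPM (-1.46, SE 0.24, edgeR's adjusted p = 0.00473), and all knockouts lay below all controls. Aqp3, a water and glycerol channel of keratinocytes, rose from 236 ± 34.3 to 506 ± 127 CPM (1.10, SE 0.22, edgeR's adjusted p = 0.00823). Dhrs3, a retinaldehyde reductase gene induced by retinoic acid, was at 46.2 ± 6.37 and 36.2 ± 5.81 CPM and was not called (-0.35, SE 0.15, edgeR's adjusted p = 0.108). The number that fell was 2 without control 1 and 3 without knockout 3.

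**Figure D5:**
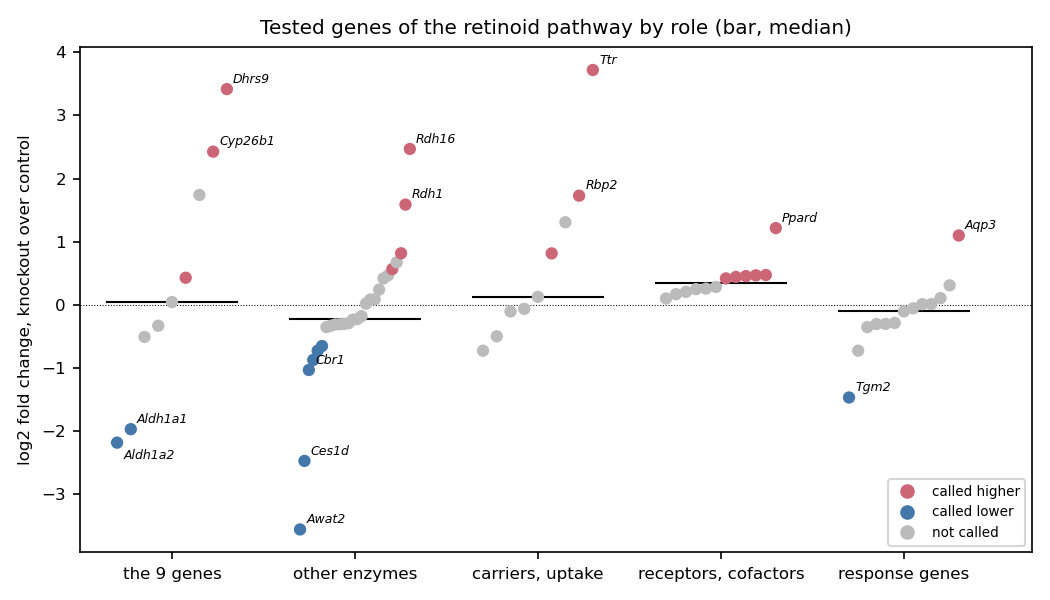
Log2 fold change, knockout over control, of every tested gene of the 9 and of the 4 retinoid lists, coloured by call, with a bar at the median of each list. Called genes beyond a log2 change of 1 in either direction are named, and the enzymes hold genes at both ends of the scale.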

How the data were processed

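The authors deposited 1 table of whole-number counts per gene, with 1 column per library and Ensembl identifiers. The tools named are featureCounts 1.4.6, TopHat 1.3.3 and Cuffdiff 1.3.0, and the build is GRCm38, per the submitters' processing notes. Their order, the annotation, strand and multiple matches are not given in the sources used here. Symbols, positions and exon lengths came from the GENCODE annotation of GRCm38 (98.0% of identifiers). Every identifier stayed in the library sizes.

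Counts were scaled by TMM, filtered with filterByExpr and tested with edgeR 4.0.16 (R 4.3.3), group only, robust, all 6 libraries. Adjusted p is Benjamini-Hochberg over every tested gene. CPM per kb divides CPM by the union of exons. Family shares were compared by exact permutation. The fit was also run on counts simulated from its own estimates of spread, which does not check the calls in these data. The genes and lists were chosen with earlier results of these data known. From each pathway list the 4 called genes with the smallest p are named. Lrat, Rarg, Rxra, Rarb, Dhrs3, Cyp26a1 and Cyp26c1 were chosen after their values were seen. Alternatives changed scaling, filter, tool (DESeq2 1.42.0, limma-voom 3.58.1), robustness, block, sex, threshold and libraries.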

Additional observations from a re-analysis of the deposited data

How the results depend on the processing

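Of the 9 genes, Dhrs9 and Cyp26b1 kept direction and call under all 16 alternatives and Stra6 stayed uncalled, while the log2 fold change of Crabp2 turned to -0.10 with upper-quartile factors, -0.071 with limma-voom, -0.070 with the replicate number as a block and -0.37 without knockout 3, and that of Crabp1 to 0.17 without knockout 2. With 1 library left out Crabp2 ranged from -0.37 to 0.34 and Crabp1 from -0.99 to 0.17. Upper-quartile factors moved the median of all genes from -0.02 to -0.17 and the share of higher among called genes from 48.0% to 30.6%. With them 1756 genes rose, 1 receptor or cofactor gene rose and 2 response genes fell. Without a filter on low counts 1 carrier gene, 1 receptor gene and 2 response genes fell. At an adjusted p under 0.01 from edgeR, 1115 genes rose and 1009 fell, and 0 of the 9 genes fell, with 2 retinoid enzymes and 1 receptor or cofactor gene higher. Of the 9 genes 1 fell with a filter of 1 CPM, 1 with sex as a covariate and 1 with the replicate block. In the fit with the replicate block 1 carrier gene and 3 response genes fell, and Rdh10 and Aldh1a2 were not called (edgeR's adjusted p = 0.0649 and 0.0756). Deviations from the group means correlated at -0.183, -0.0636 and 0.437 between same-numbered libraries 1, 2 and 3. Between libraries of unlike number the correlations lay from -0.443 to 0.421. With 3 libraries per group these values cannot show whether the samples were paired, and the labels give no link beyond the number. With each library left out in turn, between 1586 and 2754 genes rose and between 1714 and 2771 fell. Of the 9 genes 1 to 2 fell. Among receptors and cofactors 1 to 6 rose and 0 to 1 fell, 0 to 1 carrier genes fell, and 1 to 3 response genes fell. The causes of these shifts were not tested. Depth limits Aldh1a2, Rarb and the other CYP26 genes, which had few counts.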
